A study of Drosophila melanogaster with 4 samples.

Results

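The muscle actin genes Act88F, Act79B, Act87E and Act57B were followed in dSETD3 knockout (KO) and control flies. Their probes on the array were found through the gene names given in the study's supplementary tables, together with every other probe for the same transcript, and 3 of the 4 genes had a probe (3 of 32162 probes on the array, or 3 of 1949 genes that could be named). Act57B had no named probe and was not analysed here. The tested flies were homozygous for a dSETD3 (CG32732) deletion in w[1118], labelled w[1118];;CG32732-/-, and the control flies were isogenic w[1118]. All were virgin females, 5 days old, and total RNA of lysed flies was labelled with Cy3 and hybridized to 4 one-colour Agilent arrays, 2 per genotype, described as biological replicates. The deletion was made by CRISPR-Cas9, which replaced the first exon of dSETD3 with a dsRED cassette, and was backcrossed repeatedly to w[1118]. A single knockout stock was used, so the allele, its cassette and that stock cannot be told apart, and the number of flies per sample was not given in the sources used here.

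Actin is the protein of the thin filaments, along which myosin of the thick filaments pulls when muscle contracts. Flies carry several nearly identical actin genes that differ mainly in where they are used. Act88F is the actin of the indirect flight muscles, Act79B is used in tubular muscles of the adult thorax and legs, Act87E and Act57B are used in body wall muscles, and Act5C and Act42A serve as cytoplasmic actins in most cells. SETD3, the mammalian counterpart of the deleted gene, is known as an enzyme that methylates a histidine of the actin protein.

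Each array held 45019 spots, and 20797 and 20464 probes were well above background on the dSETD3 KO arrays, against 21221 and 21482 on the control arrays. Replicate arrays correlated at r = 0.993 for dSETD3 KO and 0.991 for control. The 75th percentile signal to which each array was scaled was 1662 and 1179.2 in dSETD3 KO, against 1630 and 1766.1 in control. The deleted gene was read by a pair of probes. The brighter one gave signals of 9.87 and 4.99 in dSETD3 KO, not well above background, and 7810 and 7999 in control, as the labels have it. All 4 arrays lay on 1 slide with 1 scan time, with dSETD3 KO at positions 3 and 4 and control at positions 1 and 2, so position and genotype cannot be told apart.

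Signals of all 3 measured muscle actins were lower in dSETD3 KO flies than in control flies. Act88F, the flight muscle actin, was 5.6-fold lower, Act79B was 2.63-fold lower and Act87E was 2.28-fold lower. Each gene was read by 1 probe spotted several times, and the 3 probes had 56 spots over the 4 arrays, of which 56 were well above background and 0 were saturated. The names of these 3 probes came from a table that the study selected in the same arrays. It held probes with at least 2-fold change and a p-value under 0.05. The fall of the 3 actins and its p-values therefore describe them and are not independent evidence.

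The Act88F probe, for a transcript of chromosome arm 3R, gave background-subtracted signals of 1998 and 1290 in the 2 dSETD3 KO arrays and of 11998 and 9909 in the 2 control arrays. Scaled to each array's 75th percentile, these were 1.2 and 1.09 times that percentile in dSETD3 KO, against 7.36 and 5.61 times in control. The groups did not overlap, and the brightest of the single dSETD3 KO spots (2064) was well below the dimmest control spot (9664). Normalized log2 signal averaged 0.20 ± 0.10 in dSETD3 KO and 2.68 ± 0.28 in control (SD, n = 2 each). The log2 change was -2.49 (SE 0.16, 95% interval -2.93 to -2.04), which left 17.8% of the control level (limma, adjusted p = 0.012 by Benjamini-Hochberg over all probes tested).

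Act79B, the actin of tubular muscle, lies on chromosome arm 3L. Its probe gave 7924 and 5632 in dSETD3 KO and 19198 and 23621 in control. After scaling the dSETD3 KO arrays were nearly equal, at 4.77 and 4.78 times the 75th percentile, against 11.8 and 13.4 times in control. Normalized log2 signal averaged 2.25 ± 0.00 in dSETD3 KO and 3.65 ± 0.13 in control (SD, n = 2 each), again without overlap. The log2 change was -1.40 (SE 0.10, 95% interval -1.67 to -1.12), or 38% of the control level (limma, adjusted p = 0.015).

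Act87E, the body wall muscle actin on chromosome arm 3R, was read by 10 spots per array. Mean signals were 9850 and 6324 in dSETD3 KO, against 18681 and 25475 in control. Single spots, without the 2 flagged as outliers by the software, lay between 9401 and 10320 and between 5577 and 6852 in the dSETD3 KO arrays, and between 17500 and 19400 and between 24024 and 26473 in the control arrays, so no spot of 1 genotype reached the range of the other. Normalized log2 signal averaged 2.50 ± 0.10 in dSETD3 KO and 3.68 ± 0.23 in control (SD, n = 2 each). The log2 change was -1.19 (SE 0.15, 95% interval -1.59 to -0.79), or 43.8% of the control level (limma, adjusted p = 0.02). Repeated spots of all 3 probes varied by 0.621% to 5.89% within an array (coefficient of variation) in the software's processed signal. Median pixel values could lie further apart, at 9457 and 6658 for the Act79B spots of dSETD3 KO replicate 1. Local backgrounds there were 37 and 30, so background subtraction alone does not account for the closer processed signals. The software gave these spots an error of 10%. Variation between repeated spots belongs to the reading of 1 sample and does not measure the spread between samples. The 2 control arrays differed by 0.39, 0.18 and 0.33 log2 units for Act88F, Act79B and Act87E. The gaps between the genotypes were 2.22, 1.30 and 0.95 log2 units in the same order.

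**Figure D1:**
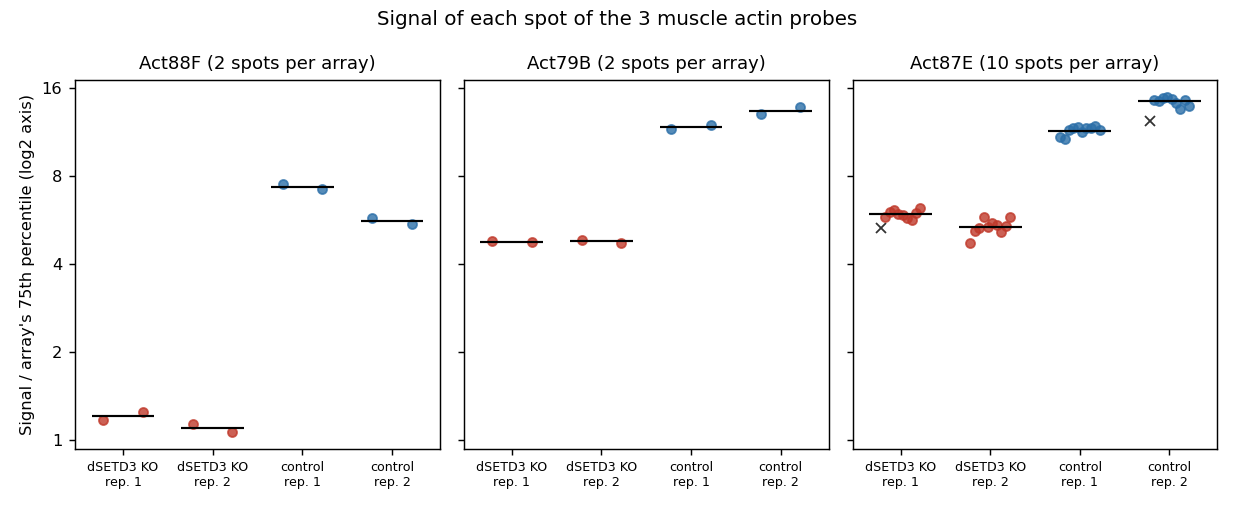
Background-subtracted signal of each spot divided by the 75th percentile of its array (log axis) for Act88F, Act79B and Act87E, in dSETD3 KO replicates 1 and 2 (left) and control replicates 1 and 2 (right), with the probe mean of each array as a bar and crosses for the 2 outlier spots left out. All dSETD3 KO spots lie below all control spots for each gene, and the gap is widest for Act88F, at 1.2 and 1.09 in dSETD3 KO against 7.36 and 5.61 in control.

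Among the 21082 probes tested, 3497 (16.6%) were lower and 801 (3.8%) were higher in dSETD3 KO at an adjusted p under 0.05, and all 3 muscle actin probes were among the lower ones. At 2-fold or more with an unadjusted p under 0.05, 4.89% of probes were lower, again with all 3 muscle actins. In 37.2% of probes both dSETD3 KO arrays lay below both control arrays, as they did for the 3 muscle actins. Nothing about the muscle actins can be read from any of these shares. Their names depended on at least 2-fold change and a p-value under 0.05 in the same arrays. The split of calls rested on the scaling, with 1419 higher and 2442 lower after quantile normalization, 1495 higher and 2521 lower after cyclic loess, 270 higher and 3280 lower without normalization, and 8296 higher and 2613 lower after median scaling. Median scaling moved the median of all probes to a log2 change of 0.32, and no normalization moved it to -0.26, against 0.02 as reported. Relative to that median the change lay between -2.69 and -2.32 for Act88F, between -1.58 and -1.31 for Act79B and between -1.38 and -1.03 for Act87E over the alternative settings.

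The calls rested on both control arrays, on the filter on dim probes and on the test. Without control replicate 1 the adjusted p was 0.075 for each of the 3 muscle actins, and without control replicate 2 it was 0.12 for Act88F and 0.14 for Act79B and Act87E, while the log2 changes stayed between -2.68 and -1.02. With no filter on dim probes the adjusted p was 0.063 for Act88F, 0.071 for Act79B and 0.077 for Act87E in limma, and with the methods' t-test on the same values the Benjamini-Hochberg adjusted p was 0.13, 0.13 and 0.14 in the same order.

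The fall of the muscle actins was set beside probes of like brightness, since dim probes were lower in dSETD3 KO more often than bright ones. Tested probes were divided by mean signal into 8 equal groups. The 3 probes had their names from a table limited to changes of at least 2-fold, which by itself placed them among the few probes that were 2-fold lower in their group, so these places are a description. Act88F fell in the 7th of these, where the median log2 change was 0.17, 5.69% of probes were called lower, 1.33% were at least 2-fold lower, and 2 of its 2635 probes had a lower change than Act88F. Act79B and Act87E fell in the 8th and brightest group, where the median log2 change was 0.12, 4.97% were called lower and 1.29% were at least 2-fold lower. There, 7 of 2636 probes had a lower change than Act79B, and 20 had a lower change than Act87E. Over all probes tested the 3 genes ranked 76, 369 and 611 from the lowest change.

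**Figure D2:**
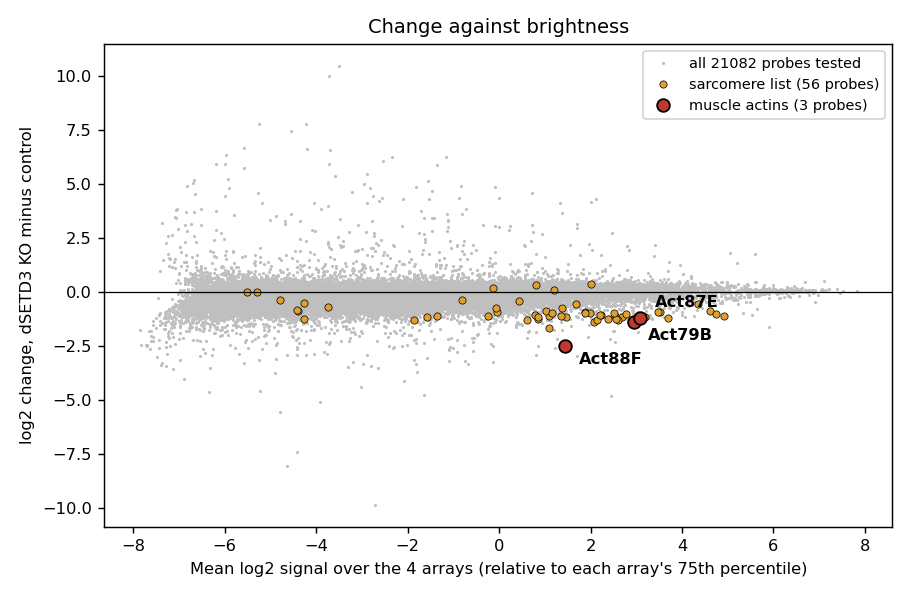
Log2 change (dSETD3 KO minus control) of each probe tested against its mean normalized log2 signal over the 4 arrays, with all probes in grey, the sarcomere lists in yellow and the muscle actins in red. The muscle actins are bright probes that lie below the bulk of probes of their brightness, at -2.49 for Act88F, -1.40 for Act79B and -1.19 for Act87E.

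The fitted fall was larger for Act88F than for the other two actins. The per-array log2 difference of Act88F to Act79B was -1.99 and -2.13 in dSETD3 KO, against -0.68 and -1.25 in control, a change of -1.09 (2.13-fold). The difference of Act88F to Act87E was -2.30 and -2.29 in dSETD3 KO, against -0.64 and -1.36 in control, a change of -1.30 (2.46-fold). The difference of Act79B to Act87E was -0.31 and -0.17 in dSETD3 KO, against 0.04 and -0.11 in control, a change of only -0.21 (1.15-fold). For each of the 3 pairs the groups did not overlap. The two-sided exact permutation p was 0.333, the smallest that 2 against 2 arrays allow, so this test cannot say whether the falls were unequal.

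The actins differed in opposite directions between the control arrays. The log2 signal in control replicate 1 minus that in control replicate 2 was 0.39 for Act88F, -0.18 for Act79B and -0.33 for Act87E. A gap of larger size than that of Act88F was found in 9.17% of all probes tested, than that of Act87E in 12.8% and than that of Act79B in 32.8%. Of the 56 sarcomere probes described next, 39 were lower and 16 higher in control replicate 1, with gaps between -0.42 and 0.22, so the Act88F gap lay outside their range. Fln, another flight muscle gene, had a gap of 0.19. TpnC4, the troponin C of flight muscle, had one of 0.08, under the median size of 0.12 over all probes tested. On the other side, zormin of the sarcomere lists had probes at -0.42, -0.40 and -0.30, and muscle myosin heavy chain (Mhc) between -0.14 and -0.12. A link of the control gap to flight muscle was not tested. The largest positive gap among the sarcomere probes, 0.22, belonged to a probe of Mlc2, a myosin light chain. Between the dSETD3 KO arrays the gap was 0.14 for Act88F, -0.00 for Act79B and 0.14 for Act87E.

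**Figure D3:**
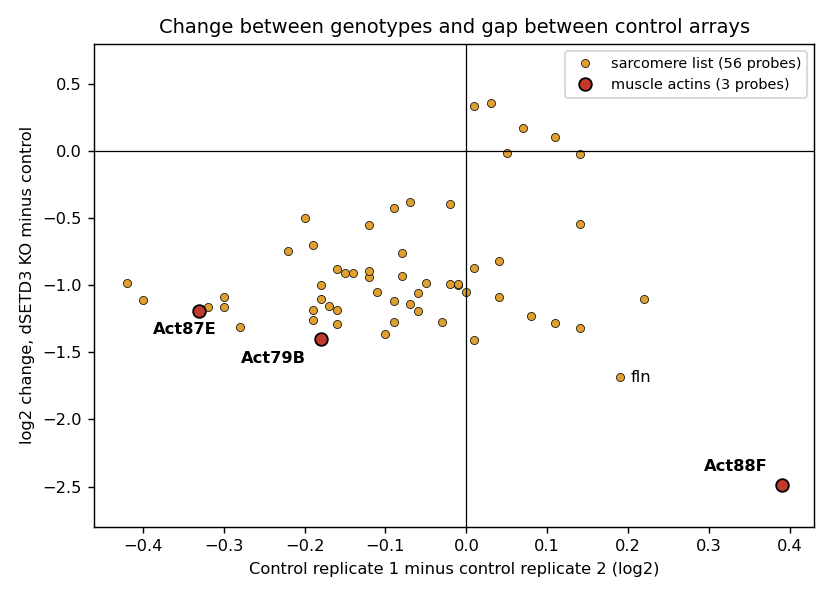
Log2 change between genotypes (dSETD3 KO minus control, vertical) against the log2 gap between the control arrays (replicate 1 minus replicate 2, horizontal) for the 3 muscle actins in red and 56 sarcomere probes in yellow. Act88F lies apart at the lower right with a gap of 0.39, while Act79B and Act87E lie on the left among the sarcomere probes, at -0.18 and -0.33.

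Other parts of the contractile apparatus were lower along with the actins. From 3 lists of sarcomere genes (31 genes), 18 genes could be named, with 56 probes tested. Of these probes 44 were called lower and 0 higher by limma at an adjusted p under 0.05 (78.6% lower, against 16.6% of all probes), while at an unadjusted p under 0.05, 49 were lower. Their median log2 change was -1.00, against 0.02 over all probes. Strn-Mlck had 12 of the 56 probes, Tm1 8, Mlc2 6 and wupA 5, so these are counts of probes and not of separate genes. Most of the sarcomere probes also had their names from the table selected for 2-fold change. Among the 20 probes of 8 genes named from the study's list of all genes, of which part was used here, 10 were called lower (50%), with a median of -0.63. Without control replicate 1, and likewise without control replicate 2, 0 of the sarcomere probes were called by limma, with 45 lower at an unadjusted p under 0.05 each time.

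Of the thin filament list, 18 of 22 probes were called lower, against 16.6% of all probes, with a median of -0.99. Among those named apart from the table selected for 2-fold change, 8 of 11 were called lower (72.7%), with a median of -0.76. Tm1, a tropomyosin that lies along the actin filament, changed by -1.31 and -1.26 at its lowest probes (limma, adjusted p = 0.017 each). WupA, troponin I, changed by -1.27 (adjusted p = 0.013), and TpnC4, the troponin C of flight muscle, by -1.23 (adjusted p = 0.014). TpnC4 gave signals of 6526 and 4379 in dSETD3 KO, against 15049 and 15442 in control. Tmod, tropomodulin, which caps the pointed end of actin filaments, changed less, by -0.38 (adjusted p = 0.049). Tm1 probes did not move together. Besides the falling ones, named here after their values were seen, 2 probes of Tm1 had changes of 0.36 and 0.34 that did not pass (adjusted p = 0.061 and 0.055).

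Of the thick filament list, 13 of 14 probes were called lower, against 16.6% of all probes, with a median of -1.14. All 14 were reached through the table selected for 2-fold change and 0 apart from it, so this count was in large part set by the naming. Fln, flightin, a thick filament protein of flight muscle, had the largest fall of all 56 sarcomere probes, with signals of 1896 and 1468 in dSETD3 KO, against 6635 and 6317 in control (log2 change -1.68, adjusted p = 0.012). Its change was smaller than that of Act88F (-2.49), a difference that was not tested. Mlc2, a myosin light chain, had probes at -1.41, -1.36 and -1.32 (adjusted p = 0.011, 0.012 and 0.015). Muscle myosin heavy chain, Mhc, had 3 probes between -0.94 and -0.89.

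Of the Z-disc and elastic list, 13 of 20 probes were called lower, with a median of -0.89. Of these 20 probes 12 belonged to 1 gene, Strn-Mlck, as did 8 of the 13 called lower, so the count mostly describes that gene. Strn-Mlck, a kinase gene of muscle that is related to myosin light chain kinases, had its lowest probes at -1.28, -1.27 and -1.12 (limma, adjusted p = 0.014, 0.013 and 0.017). Its probes did not move together, since 8 of its 12 probes were called lower and the other 4 had changes of -0.70, -0.50, -0.39 and -0.02. Zasp52, a Z-disc protein, changed by -1.16 (adjusted p = 0.021). Among probes of this list that were named apart from the selected table, 2 of 9 were called lower (22.2%), a share near the 16.6% of all probes. Of the 56 sarcomere probes, 2 had a change below that of Act79B, 12 below that of Act87E and 0 below that of Act88F.

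**Figure D4:**
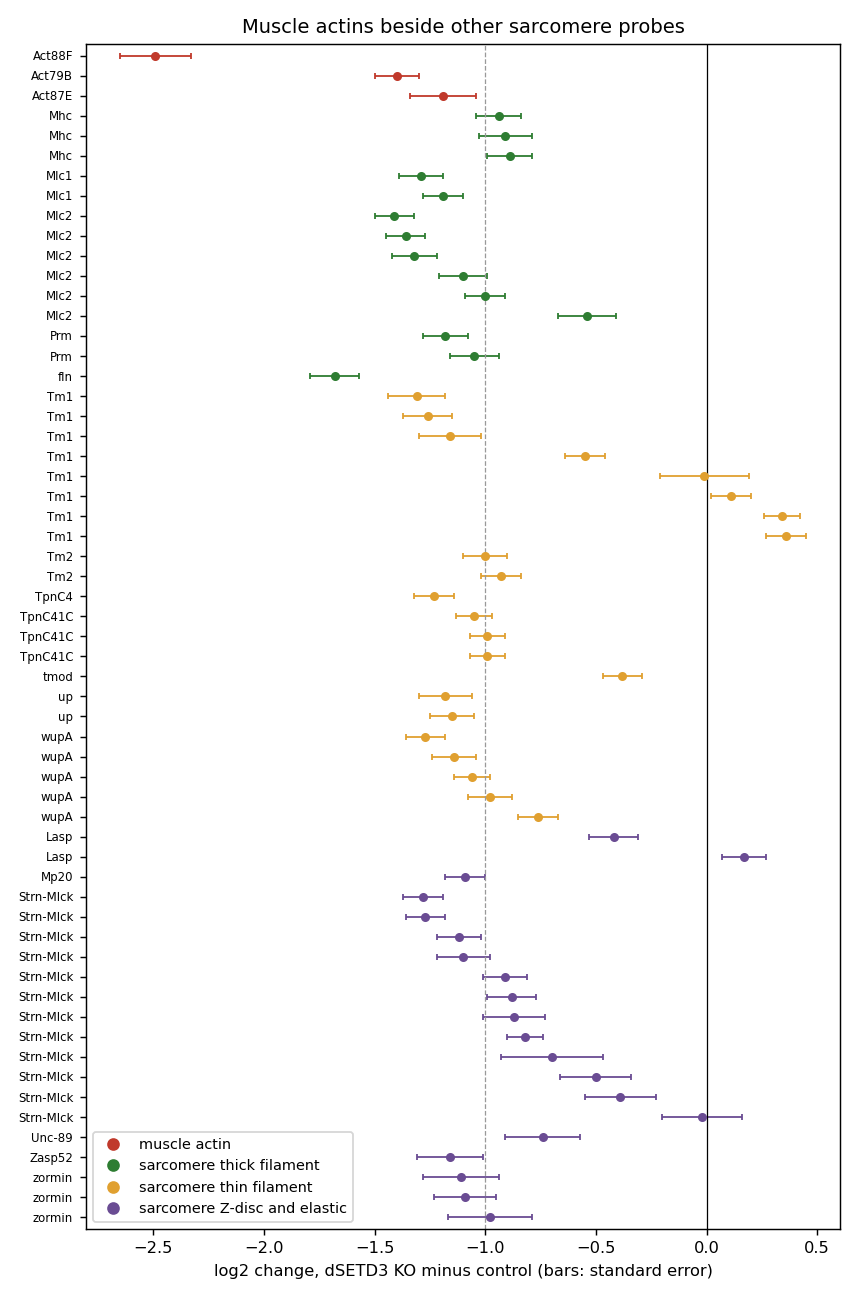
Log2 change (dSETD3 KO minus control) with its standard error for the muscle actins (red, top) and each tested probe of the thick filament (green), thin filament (yellow) and Z-disc and elastic (purple) lists, 1 row per probe and a dashed line at a 2-fold fall. Act88F lies left of all other probes, Act79B and Act87E lie among the lowest sarcomere probes, and a few Tm1 and Lasp probes lie to the right of 0.

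Genes that handle actin outside the sarcomere were hardly covered by names. Of 11 other actin family genes, Act5C and Act42A included, 0 could be named here. Of 28 genes of actin turnover only Arpc3B, a subunit of the Arp2/3 complex that starts branched actin filaments, was named. Its 2 probes had log2 changes of -0.85 and -0.90, which did not pass (limma, adjusted p = 0.081 and 0.073). Of 14 genes of actin folding only T-cp1, a subunit of the chaperonin that folds actin, was named, at 0.22 and 0.27 (adjusted p = 0.11 each).

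The genes whose pattern over the 4 arrays was most like each muscle actin were sought among 1815 named probes, by the root mean square difference of centred log2 values. Nearest to Act79B were Mlc2 (0.03), salm (0.05), CG6048 (0.05), Mlc1 (0.05) and Tm1 (0.06), of which Mlc1 and Mlc2 are myosin light chains and salm is a transcription factor known for flight muscle identity. Nearest to Act87E were Zasp52 (0.02), Obp56g (0.03), Cpr47Ef (0.05), Porin2 (0.05) and up, troponin T (0.05). Nearest to Act88F were CG34417 (0.15), Acp65Aa (0.18), trpl (0.20), CR43837 (0.21) and Acsl (0.22), none of them in the sarcomere lists. Between the actins themselves the difference was 0.13 for Act79B and Act87E, 0.58 for Act88F and Act79B, and 0.70 for Act88F and Act87E. This likeness rests on 4 arrays, 2 of each genotype, so probes with a change of like size come out as alike. All the neighbours of Act79B and most of those of Act88F had names through the table selected for 2-fold change in these arrays. Which genes came out as neighbours was therefore in part set by the naming.

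Since whole flies were lysed, fewer muscle cells and less muscle actin RNA per cell cannot be told apart. The muscle markers, whose 30 tested probes are all among the sarcomere probes above and add no separate reading, were present in all arrays, with a summed signal of 167 and 164 times the 75th percentile in dSETD3 KO, against 321 and 330 in control. Markers of follicle cells, which cover the oocyte, moved the other way, at 206 and 229 in dSETD3 KO, against 56.2 and 71.8 in control, with 10 of 10 probes called higher (limma, median log2 change 2.45). The germline marker vas gave 12.4 and 12.3 in dSETD3 KO, against 10.7 and 9.55 in control, and the fat body markers Yp1 and Yp3 gave 95.7 and 101 against 88.2 and 80.7, with 0 probes of either called by limma. Photoreceptor markers summed to 3.55 and 3.63 in dSETD3 KO, against 10.8 and 11.7 in control (3 of 6 probes lower), digestive enzymes to 1.18 and 1.6 against 4.54 and 5.74 (2 of 3 lower), and the neuronal marker brp to 0.0453 and 0.0556 against 0.0761 and 0.0828 (1 of 1 lower). All named markers had a probe well above background, but the lists were named in part. The genes ninaE and norpA (photoreceptor), Jon65Aiii, Jon99Ci and alphaTry (digestive) and elav, nSyb and Syt1 (neuron) had no name here, and many of the others were named through the table selected for change. Apart from that table, 4 of 4 follicle cell probes were called higher, against 3.8% of all probes, 1 of 1 photoreceptor probe and 1 of 1 neuronal probe were called lower, against 16.6%, and 0 digestive enzyme probes were named. The part of these tissues in the lower muscle actin signals was not tested.

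**Figure D5:**
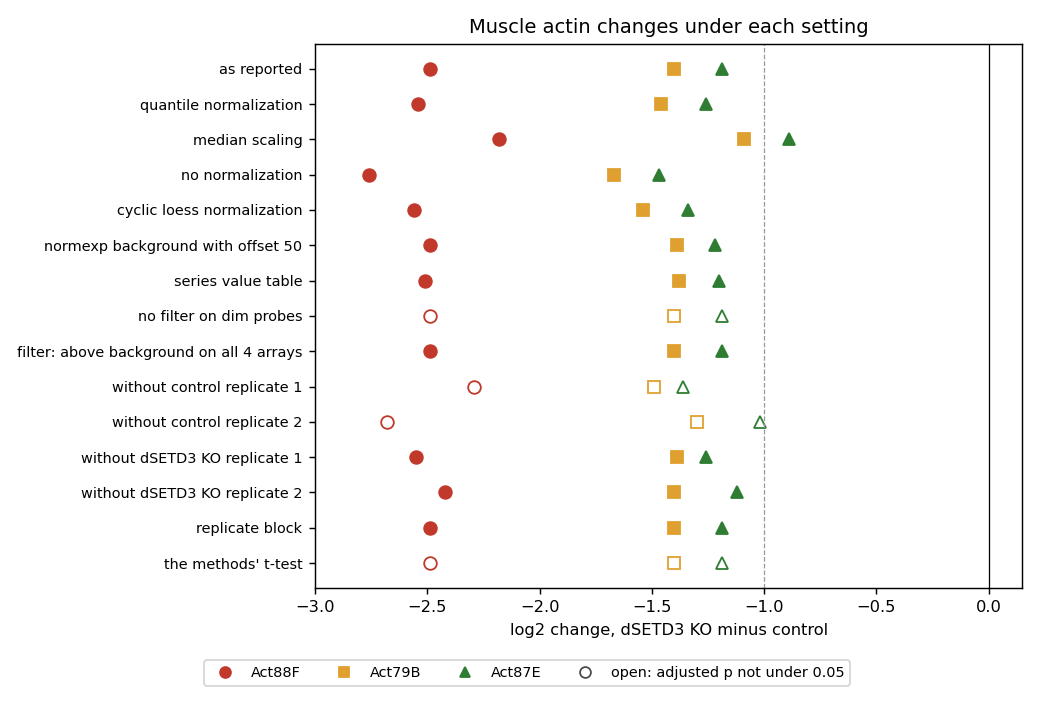
Log2 change (dSETD3 KO minus control) of Act88F (circles), Act79B (squares) and Act87E (triangles) as reported and under each alternative setting, with open symbols where the adjusted p was not under 0.05 and a dashed line at a 2-fold fall. All changes are below 0, between -2.76 and -0.89, and symbols are open without either control replicate, without a filter on dim probes and with the methods' t-test.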

How the data were processed

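The authors deposited Agilent Feature Extraction (10.7.3.1) output for each array, with spot intensity values after background subtraction and not normalized between arrays, and a table of 1 intensity per probe. In control replicate 1, 100% of the deposited signals had at most 3 significant digits. The study's methods name Student's t tests and no normalization.

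Control spots and outlier-flagged spots were left out (2 muscle actin spots). Log2 values of the software's processed signal, which is background-subtracted and further corrected, were averaged per probe, and each array's 75th percentile was subtracted. A probe was tested if each array of either genotype read it well above background, with limma 3.58.1 (R 4.3.3; lmFit, eBayes, genotype only) with Benjamini-Hochberg adjustment; the step was tested on simulated data. Tables used Python 3.11.15, scipy 1.17.1 and pandas 2.3.3. P-values from limma rest on the spread between these samples mixed with a spread pooled over all probes tested. The use of 2 arrays per genotype limits precision.

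Alternatives changed the normalization, background, value source, filter, replicates, pairing and test. From each list, up to 4 falls and 2 rises by probe with an adjusted p under 0.05 were named, with the 5 genes most like each actin; others are named as exceptions. Members and lists were chosen with earlier results of these data known. Each actin was read by 1 probe, and binding to other actin transcripts was not tested.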

Additional observations from a re-analysis of the deposited data

How the results depend on the processing

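Act88F, Act79B and Act87E stayed lower in dSETD3 KO under each of 14 alternatives and kept an adjusted p under 0.05 in 10. Their log2 changes were -2.76 to -2.18, -1.67 to -1.09 and -1.47 to -0.89, and Act87E was under 2-fold only with median scaling. Adjusted p ranged from 4.9e-12 to 0.13, from 0.00019 to 0.14 and from 0.0016 to 0.14. The lowest of these came from no normalization, where limma gave all 3 probes the same standard error of 0.37. Those low values therefore do not measure each probe's own spread. With no filter on dim probes the changes of -2.49, -1.40 and -1.19 had an adjusted p of 0.063, 0.071 and 0.077 in limma. With the methods' t-test the same changes had an adjusted p of 0.13, 0.13 and 0.14. Leaving out 1 array gave -2.68 to -2.29, -1.49 to -1.30 and -1.36 to -1.02, and the call was lost without either control array.

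Over all probes, 801 were called higher, against 1419 (quantile), 8296 (median scaling), 270 (no normalization), 1495 (cyclic loess), 405 (normexp), 38 (no filter), 0 (the methods' t-test, with 2944 at an unadjusted p under 0.05) and 0 to 981 without 1 array. Lower calls numbered 3497, against 1391 (normexp), 26 (no filter), 2 (the methods' t-test) and 0 to 4163 without 1 array. Of the sarcomere probes 44 were called lower, against 0 with no filter (48 at an unadjusted p under 0.05 in limma), 0 with the methods' t-test (43 at an unadjusted p under 0.05) and 0 to 47 without 1 array. Without control replicate 1, limma made 0 calls (unadjusted p under 0.05 in 2028 higher and 5155 lower probes), and without control replicate 2, 0 calls (1020 and 3797). The cause was not tested.

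Same-numbered arrays of the genotypes did not deviate together (r = -0.21), so they share only a number. With the replicate number as a block, 382 probes were higher, 2509 lower and 43 of the sarcomere probes lower, and the actins had an adjusted p of 0.038, 0.042 and 0.044. Crossing the numbers, an alternative chosen after seeing the data, gave 319 higher and 1400 lower.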
